A study of Mus musculus with 13 samples.

Results

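The Olig1 and Olig2 locus was taken as every peak of 4 deposited lists whose centre lay between 91.05 and 91.45 Mb on mouse chromosome 16 of build mm9, a window of 400 kb placed around the Olig2 and Olig1 genes. It held 23 of the 23280 peaks in the lists. These were 15 of the 11747 Olig2 peaks, 2 of the 5551 Nkx2.2 peaks, 2 of the 4094 Nkx6.1 peaks and 4 of the 1888 Gli3 peaks.

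The peaks came from chromatin immunoprecipitation and sequencing (ChIP-seq) of neural progenitors grown from mouse embryonic stem (ES) cells, with 2 days in suspension and 3 days in 500 nM retinoic acid. Ventral progenitors were also given 160 to 800 nM Smoothened agonist, a compound that turns on Sonic hedgehog signalling, and provided 2 ChIP libraries each for Nkx2.2, Nkx6.1 and Olig2. Their mixed background held Swiss Webster, 129 Sv and C57BL6/J, and the ES cells were the line YFP3.1 (first Nkx6.1 and Olig2 libraries) or Rosa26-Gli1FLAG, made from YFP3.1 (all others). Dorsal progenitors, made without the agonist, provided 1 Gli3 ChIP library from V6.5 cells (C57BL/6 X 129/sv) whose Gli3 gene had been tagged with 3xFLAG-Avi at its first codon. Gli3 thus differs from the other factors in culture, ES line and antibody, which cannot be told apart. The other 6 of the 13 libraries were inputs, sequenced chromatin without immunoprecipitation. Each library is a culture of many cells, so peaks of different lists at the same place need not be from the same cells. Each factor has 1 list, so no replicate error can be given for a peak call.

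Olig1 and Olig2 are neighbouring genes for basic helix-loop-helix transcription factors. Olig2 marks the progenitors of spinal motor neurons and later of oligodendrocytes, and Olig1 acts in oligodendrocyte maturation. Sonic hedgehog switches Olig2 on in the ventral neural tube. Gli3 is cut to a repressor when that signal is absent. Nkx6.1, a homeodomain factor of the ventral neural tube, promotes Olig2 expression, and Nkx2.2, the homeodomain factor of the domain next to it, represses Olig2.

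In the RefSeq gene table of GRCm38.p6 the protein-coding genes around the pair stood in the order Paxbp1, 4932438H23Rik, Olig2, Olig1, Ifnar2 and Il10rb. That build is not the one of the peaks, so no peak was placed relative to a gene. The 250 bases before the Olig2 start in RefSeq GRCm38.p6 (chr16:91225300-91225549, plus strand) are shown because they hold the promoter of the gene around which the peaks were collected. Capitals mark CCACCC, the core of the Gli recognition sequence.

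Olig2: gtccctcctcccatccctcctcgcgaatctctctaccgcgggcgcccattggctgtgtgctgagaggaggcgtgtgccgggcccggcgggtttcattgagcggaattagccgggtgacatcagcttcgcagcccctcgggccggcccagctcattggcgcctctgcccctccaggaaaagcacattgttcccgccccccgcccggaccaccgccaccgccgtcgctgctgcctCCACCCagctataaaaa

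CCACCC occurred 1 time, starting 17 bases before the gene start, and 28.1% of 32851 RefSeq promoter windows of the same length hold it on either strand. The longer Gli sequence GACCACCCA (in 0.225% of windows) was not found on either strand. Neither were the E-box CANNTG that helix-loop-helix factors recognise (in 66.2% of windows), its form CATATG (in 3.46%), its form CAGATG (in 14.4%) and its form CAGCTG (in 13.0%). The sequence CACTTNA of Nkx2-class factors (in 10.1%), its core AAGTG (in 40.7%) and the homeodomain sequence TAATTA (in 4.84%) were absent from it as well. These letters describe the window only, and whether any peak covers it was not analysed here.

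Olig2 peaks were present at every bound place of the locus. Joined where they shared at least 1 bp, the 23 peaks formed 14 sites, numbered here from the low to the high end of the chromosome, and all 14 held an Olig2 peak, where 61% of the 19087 such regions over the 4 whole lists did. A second factor lay at 8 of the 14 sites, where 16.2% of all regions held 2 or more factors. Gli3 was the second factor at 4 sites (2, 6, 10 and 12), Nkx2.2 at 2 sites (7 and 14) and Nkx6.1 at 2 sites (1 and 4). The remaining 6 sites (3, 5, 8, 9, 11 and 13) held Olig2 alone. No site held 3 factors, against 3.56% of all regions. The sites lie in 1 locus and are not independent of each other, so these shares are given as a description without a test.

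**Figure D1:**
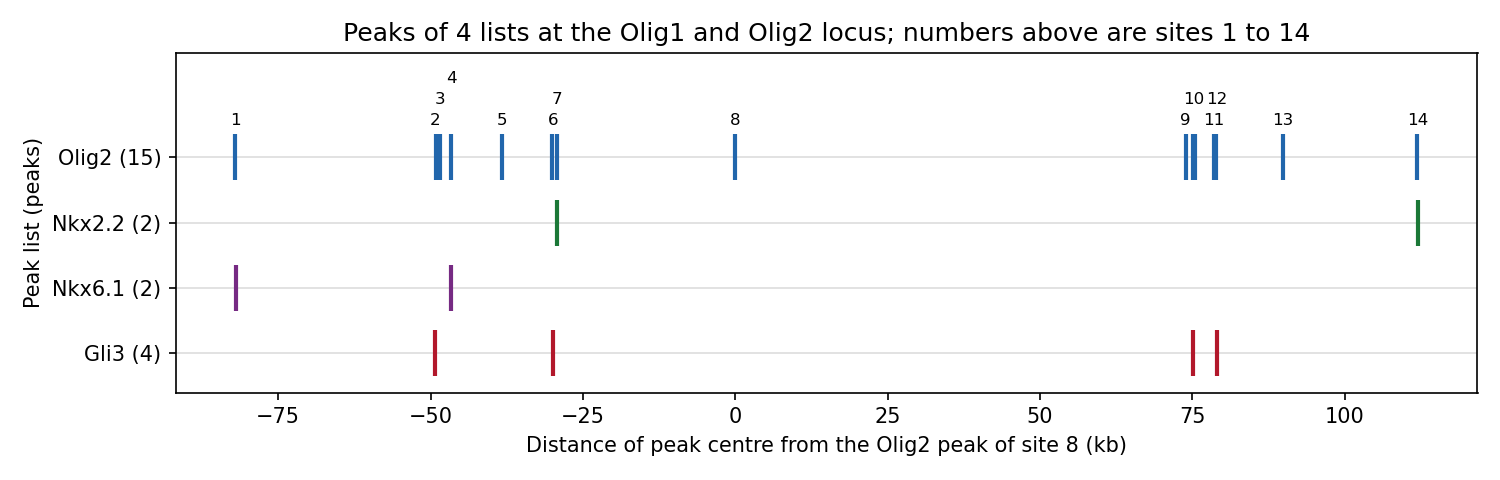
Peaks of the Olig2, Nkx2.2, Nkx6.1 and Gli3 lists at the locus, each drawn as a tick at the distance of its centre in kb from the Olig2 peak of site 8, with site numbers on top. All 14 sites have an Olig2 tick, and the ticks of the other lists fall on 8 of them.

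Seen from each list, 2 of 2 Nkx2.2 peaks overlapped an Olig2 peak, against 24.3% of the whole Nkx2.2 list. The same held for 2 of 2 Nkx6.1 peaks, against 38.6% of that list, and for 4 of 4 Gli3 peaks, against 20.1% of that list. None of the 4 Gli3 peaks overlapped Nkx2.2 (22.5% of the Gli3 list) or Nkx6.1 (7.36%), and none of the 2 Nkx2.2 peaks overlapped Nkx6.1 (16.1% of the Nkx2.2 list). Of the 15 Olig2 peaks, 5 overlapped Gli3 (3.26% of the Olig2 list), 2 overlapped Nkx2.2 (11.2%) and 2 overlapped Nkx6.1 (13.5%), while 6 overlapped no other list (78.3%). Of the 5 with Gli3, 2 met the same Gli3 peak at site 10, and the upper of these shared only 4 bp with it. Counts of 2 and 4 peaks can take few values, and they are printed for what they are.

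The sites were spread over 194.4 kb, from 91140701 to 91335135, with long empty stretches on both sides. The nearest peak below was an Olig2 peak at 90833350 to 90833649, 307.1 kb from site 1, and the nearest above was an Nkx6.1 peak at 91575079 to 91575378, 239.9 kb from site 14. Of the 19066 gaps between neighbouring regions of the 4 lists, 9.71% were as long as the lower gap and 13.8% as long as the upper one, and the median gap was 55.9 kb. These are the peaks just outside the window, and the peaks just inside it are those of sites 1 and 14. The longest gap within the locus, 73.6 kb, separated sites 1 to 8 from sites 9 to 14.

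Within this span the Olig2 peaks stood close together. The median distance of an Olig2 peak's centre to the next Olig2 centre was 678 bp over the 15 peaks, and 37701 bp over the whole list. A neighbour within 1000 bp was present for 8 of the 15, against 9.04% of the list. Of 6601 windows of 400 kb laid end to end along the chromosomes, 0.0757% held 15 or more Olig2 peaks, and the median window held 1. With the tiles shifted by 200 kb the share was 0.137% of 6591 windows. The locus window was placed on the genes while the tiled windows were not, and the unshifted tiles cut the locus in 2, while a shifted tile held all 15 of its Olig2 peaks. In the unshifted tiling the fullest tile of chromosome 16 held 11.

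Coverage around each peak of the ventral factors was read from the authors' tables, which give 3 blocks of columns without naming a library. A value is the mean coverage within 250 bp of the peak centre, in the authors' units. Each block moves in steps of a fixed size (0.249, 0.468 and 0.392 units in blocks 1, 2 and 3 of the Olig2 table), and how many reads lie behind a unit is not stated, so the depth is unknown. Wherever a row of the Nkx6.1 table and a row of the Olig2 table reached exactly the same positions (80 pairs of rows over the genome), their block 3 values were equal at 100.0% of offsets, while blocks 1 and 2 of the tables were equal to each other at 8.78% and 6.58%. Block 3 thus held the same values in both tables. The labels tie 1 sample to both, an input. The blocks were not assigned to libraries from this.

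Coverage of the 15 Olig2 peaks ranged widely. In block 1 it lay between 5.37 and 70.5 units with a median of 14.1, and in block 2 between 4.12 and 45.1 units with a median of 14.9. The medians of the whole Olig2 list were 11.3 units in block 1 and 8.44 units in block 2. Of the 15 peaks, 10 lay at or above the list median in block 1 and 11 in block 2. The median percentile of the 15 within the list was 62.2 in block 1 and 74.03 in block 2, where a percentile is the share of the list with lower coverage. Ranked by coverage, the 15 peaks stood in similar order in blocks 1 and 2 (Spearman's rho 0.85 over 15 peaks, some of which share positions, and 0.73 over the list), and not in blocks 1 and 3 (rho of -0.13 over the 15 and 0.12 over the list). In block 3 the 15 peaks had 0.355 to 2.65 units with a median of 0.952, against a list median of 0.710.

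**Figure D2:**
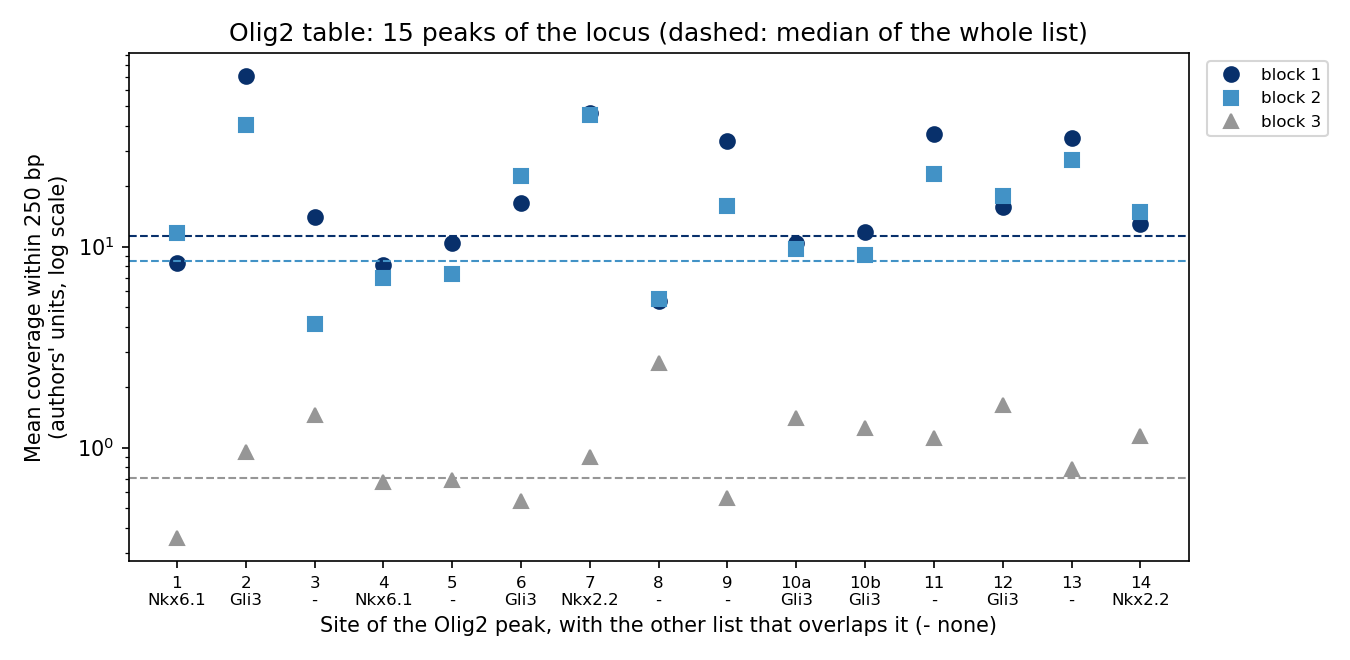
Mean coverage within 250 bp of the centre of the 15 Olig2 peaks, in the authors' units on a log axis, by site and block (points), with the median of the whole Olig2 list as a dashed line per block. The lower and upper peaks of site 10 are 10a and 10b. Sites 2, 7, 9, 11 and 13 stand highest in block 1, between 33.4 and 70.5 units, and the site 8 peak is the highest in block 3.

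Site 2, at 91173478 to 91173964, had the highest Olig2 coverage of the locus in block 1. Blocks 1, 2 and 3 gave its Olig2 peak 70.5, 40.5 and 0.952 units, at percentiles 97.1, 95.5 and 69.3 of the Olig2 list. Site 7, at 91193438 to 91193778, came next in block 1 and was highest in block 2, with 46.4, 45.1 and 0.896 units in blocks 1, 2 and 3. Site 11, at 91301338 to 91301637, had 36.5, 22.9 and 1.12 units. Site 13, at 91312634 to 91312933, had 34.9, 26.99 and 0.784 units, and site 9, at 91296681 to 91296980, had 33.4, 16.01 and 0.560 units. These 5 peaks lay at percentiles 89.2 to 97.1 in block 1 and 76.5 to 96.4 in block 2, and sites 9, 11 and 13 had no other factor's peak. Site 11 lay only 59 bp from site 12, which holds Gli3, and joins it where centres within 1000 bp are joined. All 5 peaks were the most covered in block 1. In block 2 site 6, which holds Gli3, stood in the place of site 9 among the 5 highest. Without an overlapping list the 6 Olig2 peaks spanned 5.37 to 36.5 units in block 1, with Gli3 the 5 peaks spanned 10.5 to 70.5 units, and these ranges overlap.

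The Olig2 peaks of sites 3, 5, 6, 10, 12 and 14 had 10.5 to 16.4 units in block 1. Those of sites 3 and 14 are described further below. Site 6 had 16.4 units in block 1 (percentile 69.4) and 22.6 in block 2 (86.3), and site 12, at 91301697 to 91302118, had 15.7 units (67.6) and 17.8 units (79.9). The site 12 means take in the slope of site 11, with the highest bin 250 bp from the centre on that side. At the centre itself coverage was 14.7 units in block 1 and 16.8 units in block 2. The lower Olig2 peak of site 10, at 91297888 to 91298187, had 10.5 units in block 1 (45.03) and 9.75 in block 2 (56.8), and the upper one, at 91298132 to 91298431, had 11.8 (52.9) and 9.09 (53.6). Site 5, at 91184566 to 91184865, had 10.5 units (45.1) and 7.28 units (42.99). In this range the Olig2 peaks of sites 6, 10 and 12 overlap a Gli3 peak and that of site 14 an Nkx2.2 peak. Those of sites 3 and 5 overlap no other list.

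The site 8 peak, alone in the stretch between sites 7 and 9 at 91222773 to 91223072, was the weakest Olig2 peak of the locus in block 1. Coverage there was 5.37, 5.50 and 2.65 units in blocks 1, 2 and 3. Its percentile was 3.13 in block 1 and 30.7 in block 2, and 99.6 in block 3. In block 3 that is 6.76 steps, against 21.6 steps in block 1 and 11.8 in block 2. With 1 unit added to each, its centre stood 2.96 times over the flank (the outermost 250 bp on each side of the 2000 bp shown) in block 1, 5.01 times in block 2 and 2.35 times in block 3. It was the only one of the 15 to reach 2 times the flank in block 3, as 3.67% of the list did. Block 3 coverage was thus raised where block 1 coverage was lowest, and the part of block 3 in the call was not tested.

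In blocks 1 and 2, 14 and 13 of the 15 Olig2 peaks stood at least 2 times over their flank on the same measure, against 98.4% and 93.6% of the list. The exceptions lay beside other peaks. The flank of the site 4 peak fell partly on site 3, so that centre and flank were both 8.10 units in block 1, while in block 2 they were 7.01 and 3.08 units. The flank of the site 3 peak fell partly on site 4 and had 5.87 units in block 1 and 4.51 units in block 2. Site 3, at 91174343 to 91174642, also differed most in percentile between these blocks, with 14.1 units (percentile 62.2) in block 1 and 4.12 units (percentile 20.2, the lowest of the 15) in block 2.

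**Figure D3:**
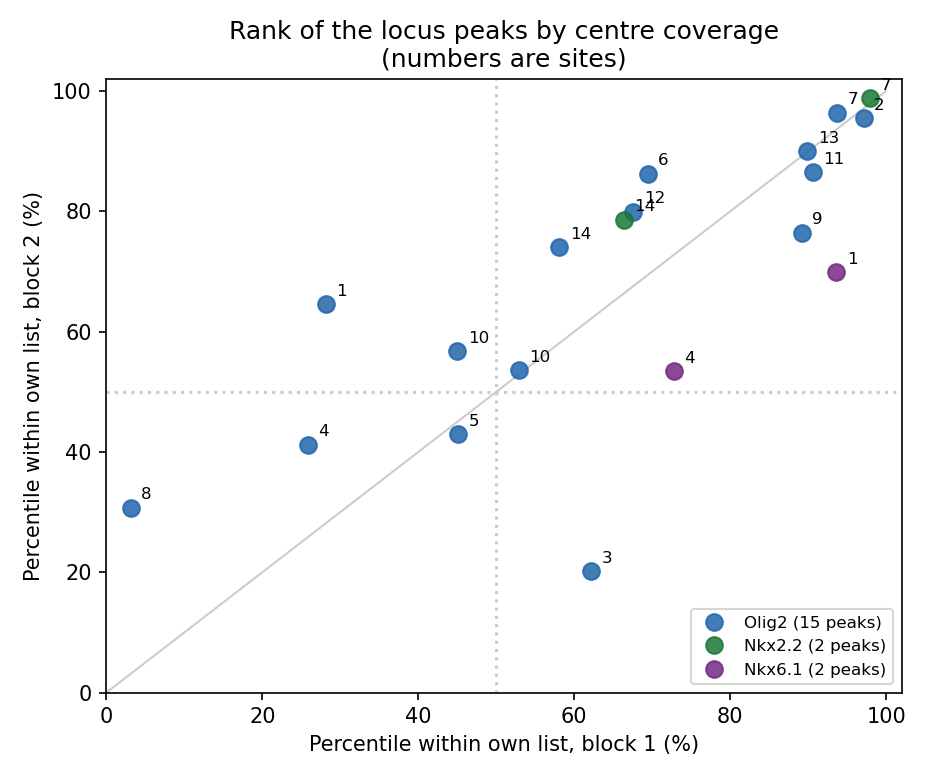
Percentile of each ventral factor's peak at the locus within its own whole list by centre coverage, block 1 on the horizontal and block 2 on the vertical axis, in percent, with the site number beside each point. The Nkx2.2 peak of site 7 and the Olig2 peaks of sites 2 and 7 lie above 90 on both axes, and the Olig2 peaks of sites 4, 5 and 8 lie under 50 on both.

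Nkx2.2, which represses Olig2 in the ventralmost progenitors, had a strong peak at site 7. This peak, at 91193479 to 91193778, reached 78.3, 30.3 and 1.57 units in blocks 1, 2 and 3 of the Nkx2.2 table. That put it at percentile 97.96 of the Nkx2.2 list in block 1, 98.8 in block 2 and 65.0 in block 3. Its centre lay 0.041 kb from that of the Olig2 peak, and the peaks shared 0.259 kb. The other Nkx2.2 peak, at site 14 (91334836 to 91335135), reached 22.8, 8.40 and 1.53 units, at percentiles 66.4, 78.7 and 63.2. There the centres of Nkx2.2 and Olig2 lay 0.161 kb apart and 0.139 kb were shared. In its own table the Olig2 peak of site 14 stood at 13.0 units (block 1) and 14.9 units (block 2). Both factors thus stood higher at site 7 than at site 14 in blocks 1 and 2 of their tables.

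Nkx6.1, which promotes Olig2 expression, had peaks at sites 1 and 4. At site 1 its peak, 91140799 to 91141098, reached 28.3, 7.82 and 0.261 units in blocks 1, 2 and 3 of the Nkx6.1 table, at percentiles 93.6, 69.9 and 11.6. At site 4 its peak, 91176188 to 91176487, had 14.4, 5.54 and 0.635 units, at percentiles 72.7, 53.4 and 45.8. The Olig2 peaks there ranked lower within their own list than the Nkx6.1 peaks did in blocks 1 and 2. Olig2 had 8.33 units (percentile 28.2) in block 1 and 11.6 units (64.6) in block 2 at site 1. At site 4 it had 8.10 units (25.8) in block 1 and 7.01 units (41.2) in block 2. Centres of the factors lay 98 bp apart at site 1 and 94 bp apart at site 4. Units of different tables are not on a known common scale, so only ranks within a table are set side by side, and with 2 peaks no test was made.

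Gli3, profiled without Smoothened agonist, had peaks at sites 2, 6, 10 and 12. They lay at 91173478 to 91173777, 91192882 to 91193181, 91297836 to 91298135 and 91301819 to 91302118. No coverage table was used for Gli3, but its list is not in genomic order, and these peaks stood 5.83%, 2.17%, 34.5% and 0.953% of the way down it. In the lists of the ventral factors the line number followed block 1 coverage, with Spearman's rho of -0.93 over the Olig2 list, -0.89 over Nkx6.1 and -0.83 over Nkx2.2. What the lists were sorted by is not stated, and for Gli3 the line has no coverage to be set against. The Olig2 peaks at the same sites lay 3.01% (site 2), 59.04% (site 6) and 84.4% and 75.5% (site 10) of the way down the Olig2 list, and at site 12 on line 8223 of 11747. At sites 6, 10 and 12 the Gli3 peak thus stood nearer the top of its list than the Olig2 peak of its own, and at site 2 both stood near the top.

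**Figure D4:**
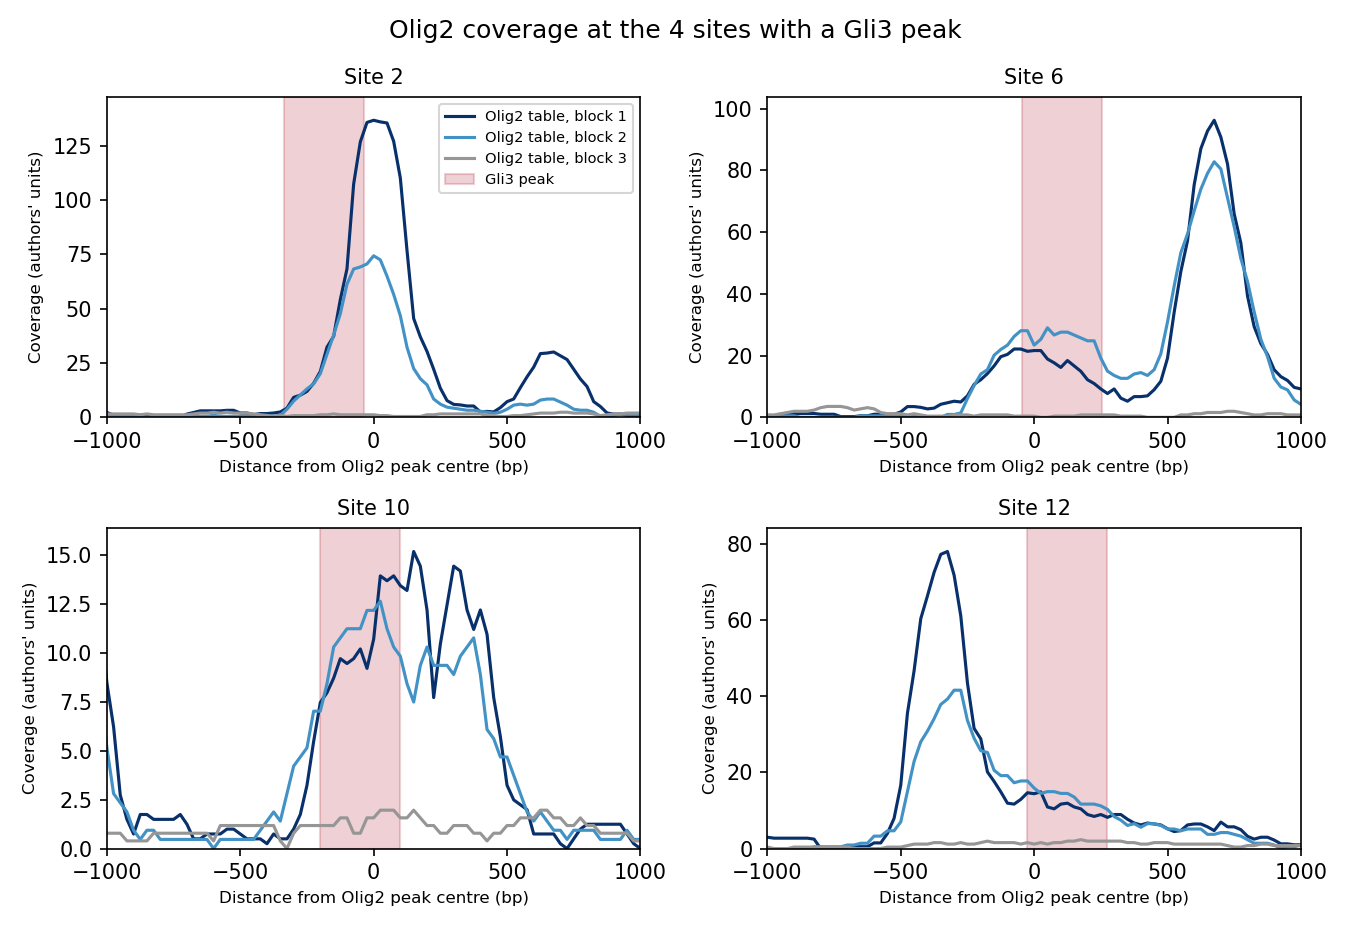
Coverage in the 3 blocks of the Olig2 table (authors' units, lines) against the distance in bp from the Olig2 peak centre at sites 2, 6, 10 (its lower Olig2 peak) and 12, with the 300-bp Gli3 peak shaded. The Gli3 peak covers the left slope of a sharp Olig2 summit at site 2, a broad low rise at sites 6 and 10, and the right shoulder of the site 11 summit at site 12.

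At sites 2 and 12 the Gli3 peaks were shifted from the higher Olig2 coverage. Centres of Gli3 and Olig2 lay 0.187 kb apart at site 2, 0.104 kb at site 6, 0.052 and 0.296 kb at site 10 and 0.122 kb at site 12. Read within 250 bp of the Gli3 centre, Olig2 coverage at site 2 came to 52.5 and 33.5 units in blocks 1 and 2, or 74.5% and 82.7% of that at the Olig2 centre. At site 12 the Gli3 centre had 11.1 and 13.6 units, 70.7% and 76.4% of the values at the Olig2 centre. Those Olig2 values take in the slope of site 11, so the site 12 shares partly reflect that neighbour. At sites 6 and 10 these shares were 91.8% to 102.3%.

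Sites 6 and 10 had wide Olig2 rises. The width of the Olig2 rise at 50% of its summit at site 6 was 0.400 kb in block 1 and 0.450 kb in block 2. For the lower and upper Olig2 peaks of site 10, which form 1 rise between them, it was 0.625 and 0.600 kb in block 1 and 0.625 kb for each in block 2. The median over the 15 Olig2 peaks was 0.225 kb in block 1 and 0.275 kb in block 2, and over the list 0.200 and 0.225 kb. A width of 0.400 kb or more, a limit chosen after the values were seen, was reached by 3 of the 15 in block 1 and 4 in block 2, against 3.25% and 5.75% of the list. The 4 in block 2 were those of sites 6, 10 and 12, all Gli3 sites, and at site 12 the width takes in the slope of site 11. Site 2, also a Gli3 site, had a narrow Olig2 rise of 0.200 kb in block 1 and 0.250 kb in block 2. Between the centres of the site 10 peaks, 0.244 kb apart, block 1 coverage did not drop under 7.71 units, with 10.7 and 10.4 units at the centres. Between sites 2 and 3, whose Olig2 centres are 678 bp apart, it dropped to 2.49 units, against 136.7 and 30.1 units at the centres.

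The Gli3 and Nkx2.2 peaks came closest to each other at sites 6 and 7. Site 6, at 91192778 to 91193181, holds Olig2 and Gli3, and site 7 holds Olig2 and Nkx2.2, with 0.256 kb between the sites and 0.597 kb between the centres of Gli3 and Nkx2.2. The Nkx2.2 table reaches site 6, although no Nkx2.2 peak was listed there. Within 250 bp of the Olig2 centre of site 6, the Nkx2.2 table gave 5.93, 5.49 and 0.746 units in blocks 1, 2 and 3. Within 250 bp of the Olig2 centre of site 7 it was 82.4, 31.96 and 1.58 units. Nkx2.2 coverage at site 6 was thus 7.19% of that at site 7 in block 1 and 17.2% in block 2. For Olig2, read at the same positions from its own table, the same shares were 36.3% and 51.1%. Nkx2.2 had a listed peak at site 7 alone while Olig2 had one at both sites, so the difference between these shares follows the peak calls and is given as a description. Between the Olig2 centres of sites 6 and 7, 660 bp apart, Olig2 coverage stayed at or above 5.22 units in block 1 and 12.6 in block 2.

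**Figure D5:**
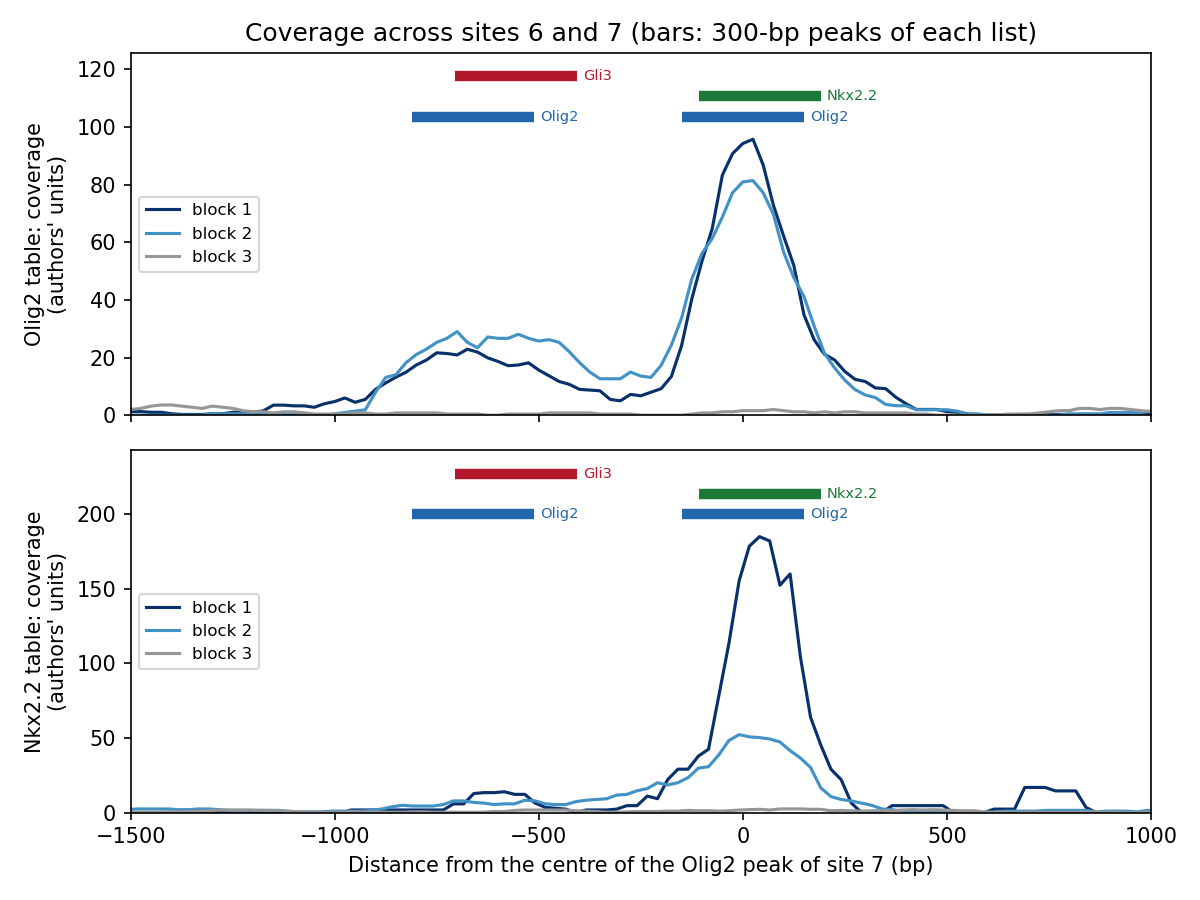
Coverage across sites 6 and 7 in the Olig2 table (upper) and the Nkx2.2 table (lower), in the authors' units by block, against the distance in bp from the Olig2 peak centre of site 7, with bars for the 300-bp peaks of Olig2, Nkx2.2 and Gli3. Both tables rise highest at site 7, and the rise at site 6, under the Gli3 peak, is 36.3% of the site 7 value in block 1 for Olig2 and 7.19% for Nkx2.2.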

How the data were processed

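The authors deposited 4 peak lists of 3 columns (chromosome, start, end) without scores and 3 tables of coverage in bins 25 bp apart that reach 2000 bp to either side of each centre, per the file headers in 3 blocks that name no library. Bowtie2 2.2.4, HOMER and mm9 are named in the submitters' processing notes. Caller settings, pooling of replicates and the scaling of coverage are not given in the sources used here. Row i of a table was matched to line i of its list. Rows reaching the same positions within a table held equal values (within 1e-06) at 100.0% of offsets. Positions are printed 1-based.

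Peaks were joined at 1 bp of overlap. Centre coverage is the mean over the bins up to 250 bp from the centre, flank coverage that over the outermost 250 bp on each side, and the ratio was taken after adding 1 unit. Calculations used Python 3.11.15, numpy 2.4.6 and scipy 1.17.1, and the functions were tested on simulated data. Columns of other samples left out numbered 0. No test was made, since each factor has 1 list. The members, sites and measures were chosen with earlier results of these data known. Named by rule were sites of 2 or more lists, Gli3 peaks, and the 3 highest and the lowest peak of each table by block 1. Other sites were named after their values were seen. Sequences of the peaks were not analysed here, nor were the proteins and the Olig1 promoter.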

Additional observations from a re-analysis of the deposited data

How the results depend on the processing

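Of 64 alternative values over 25 results, 48 stayed within 1.5 times the count, or within the spread of the 15 Olig2 peaks, or within the interval of a share. The spread between peaks is wide and does not measure how stable their median is. Taken as the highest bin, the median Olig2 coverage was 24.1 units in block 1, against 14.1 as the mean, and was counted among the 48. Narrowing the window by 100 kb on each side left 1 Nkx6.1 peak, while widening it by as much changed no count. The overlap counts depend on the rule. With centres within 100 bp, 1 Nkx2.2 peak met Olig2, 1 Gli3 peak met Olig2, and 1 Olig2 peak each met Gli3 and Nkx2.2. With 150 bp shared, 1 Nkx2.2 peak met Olig2, 1 Olig2 peak met Nkx2.2, and 3 Olig2 peaks met Gli3. With centres within 1000 bp, 8 Olig2 peaks met Gli3 and 1 Gli3 peak met Nkx2.2. Joined where centres lay within 1000 bp, the peaks gave 1 site of 3 factors, made of sites 6 and 7. In block 3 the median Olig2 coverage was 1.96 units as the highest bin, the median percentile was 29.7 by centre over flank, and 2 peaks (0.1 unit added) or 3 (none added) reached 2 times the flank. In tiles laid from position 1, which cut the locus, none of chromosome 16 (0.0%) held 15 Olig2 peaks, and over all chromosomes a shift of 200 kb gave 0.137% of windows. Unknown depth limits block 3 most, where the 15 peaks stood at 0.905 to 6.76 steps. Motif searches in the peaks were not run, and leaving out a replicate could not be done with libraries unnamed.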
